A study of Caenorhabditis elegans with 6 samples.

Results

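The genes described here encode the nicotinic acetylcholine receptor subunits of *C. elegans*, with 2 proteins that the receptors need. Members were the genes of the deposited neural RNA-seq table named *acr* with a number, together with *unc-29*, *unc-38*, *unc-63*, *lev-1*, *lev-8*, *deg-3*, *des-2*, *eat-2*, *ric-3* and *lev-10*. This rule used names only and gave 31 of the 19793 genes in the table, of which 29 are receptor subunits. The products of *ric-3* and *lev-10* are not subunits. Poly(A) RNA was sequenced from neural cells isolated from L1 animals. The 3 biological replicates of strain BB78 were *adr-2(-)*, and the 3 of strain HAH57 were *adr-2(-)*; ADR-1 dsRBD1. Both strains carry the *ok735* allele of *adr-2*, GFP and RFP reporters driven by the promoter of the neuronal gene *rab-3*, and an *unc-119* rescue. The dsRBD1 strain in addition makes FLAG-tagged ADR-1 with substitutions in its first double-stranded RNA binding domain, which disrupt RNA binding. The comparison addresses how expression in these cells differs when ADR-1 cannot bind RNA and ADR-2, the deaminase, is missing. It rests on 1 strain per genotype, and the FLAG tag is listed for the dsRBD1 strain only.

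Nicotinic receptors are pentameric, ligand-gated cation channels that open when acetylcholine binds at the interface between subunits. In *C. elegans* they act at the neuromuscular junction, on motor neurons and interneurons, and in the pharynx, and the subunits fall by sequence into groups named after UNC-38, UNC-29, ACR-8, ACR-16 and DEG-3. Body wall muscle has a levamisole-sensitive receptor, made of UNC-29, UNC-38, UNC-63, LEV-1 and LEV-8, and a separate nicotine-sensitive receptor made of ACR-16. Several subunits act in both muscle and neurons.

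The *adr-2(-)* libraries held between 5686686 and 14658470 reads on genes and the dsRBD1 mutant libraries between 12219263 and 18382009. Values below are reads divided by the size factor of the library, called normalized values. All 14 pan-neuronal markers were detected, and together took 1719.8 to 3478 RPM (reads relative to all reads on genes of the library, scaled alike) in *adr-2(-)* libraries and 2909 to 3669 in dsRBD1 mutant libraries. The 8 body wall muscle markers took 9816 to 29348 and 22619 to 24582 RPM in the same groups, and the 5 pharyngeal muscle markers 3077 to 6484 and 6588 to 8532. These sums are not per length, and the total of a library includes its ribosomal RNA (*rrn*) reads. The lowest *adr-2(-)* value of each of these lists was in replicate 3. Without it the *adr-2(-)* values began at 3079, 20426 and 5219 RPM. Since the libraries are bulk samples that hold muscle mRNA, the levels of subunits shared by muscle and neurons cannot be assigned to either, and fewer cells of a type cannot be told apart from less RNA per cell. The gene *adr-2* had 95, 79 and 44 reads in the *adr-2(-)* libraries and 2, 30 and 4 in the dsRBD1 mutant libraries, although both strains carry the same allele. Which part of the gene these reads cover was not analysed here. One library stood apart, *adr-2(-)* replicate 3, which had reads on 10532 genes where the other 5 had reads on 11971 to 15887, and whose *rrn* genes took 554242 RPM, against at most 222602 elsewhere. The 11971 was that of dsRBD1 mutant replicate 1, and the remaining libraries had reads on 14778 to 15887 genes. One read in *adr-2(-)* replicate 3 is a normalized value of 3.25, and 3 reads, the floor used for detection, are a value of 9.76. In the other libraries 3 reads are at most 2.79.

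Compared per kilobase of exon, the receptor genes were expressed at low to middling levels in these cells. The highest was *ric-3* (chromosome IV, 7818251 to 7821195 in WBcel235), which encodes a chaperone of the endoplasmic reticulum required for receptor maturation. It had 275 ± 71.3 normalized units per exonic kilobase (SD, n = 6 libraries) and lay at percentile 73.5 of the genes tested. Among the subunits, *unc-29* was the highest with 122 ± 68.7 and lay at percentile 52.2, followed by *lev-1* with 93.1 ± 30.1, *acr-20* with 86.4 ± 48.2 and *unc-38* with 81.2 ± 24.97 (SD, n = 6 each). These 4 subunits were closer to one another than their spread over libraries, so their order is not firm. The lowest were *acr-14* and *acr-6*, with 3.57 and 4.87 per kilobase. They were under the minimum mean value of 10 and were the only members not tested. *acr-14* had 23 reads in *adr-2(-)* replicate 1, 16 in dsRBD1 mutant replicate 3 and none in the other 4 libraries. *acr-6* had 17 reads in *adr-2(-)* replicate 1 and 28 and 23 in dsRBD1 mutant replicates 2 and 3, and none in the others.

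**Figure D1:**
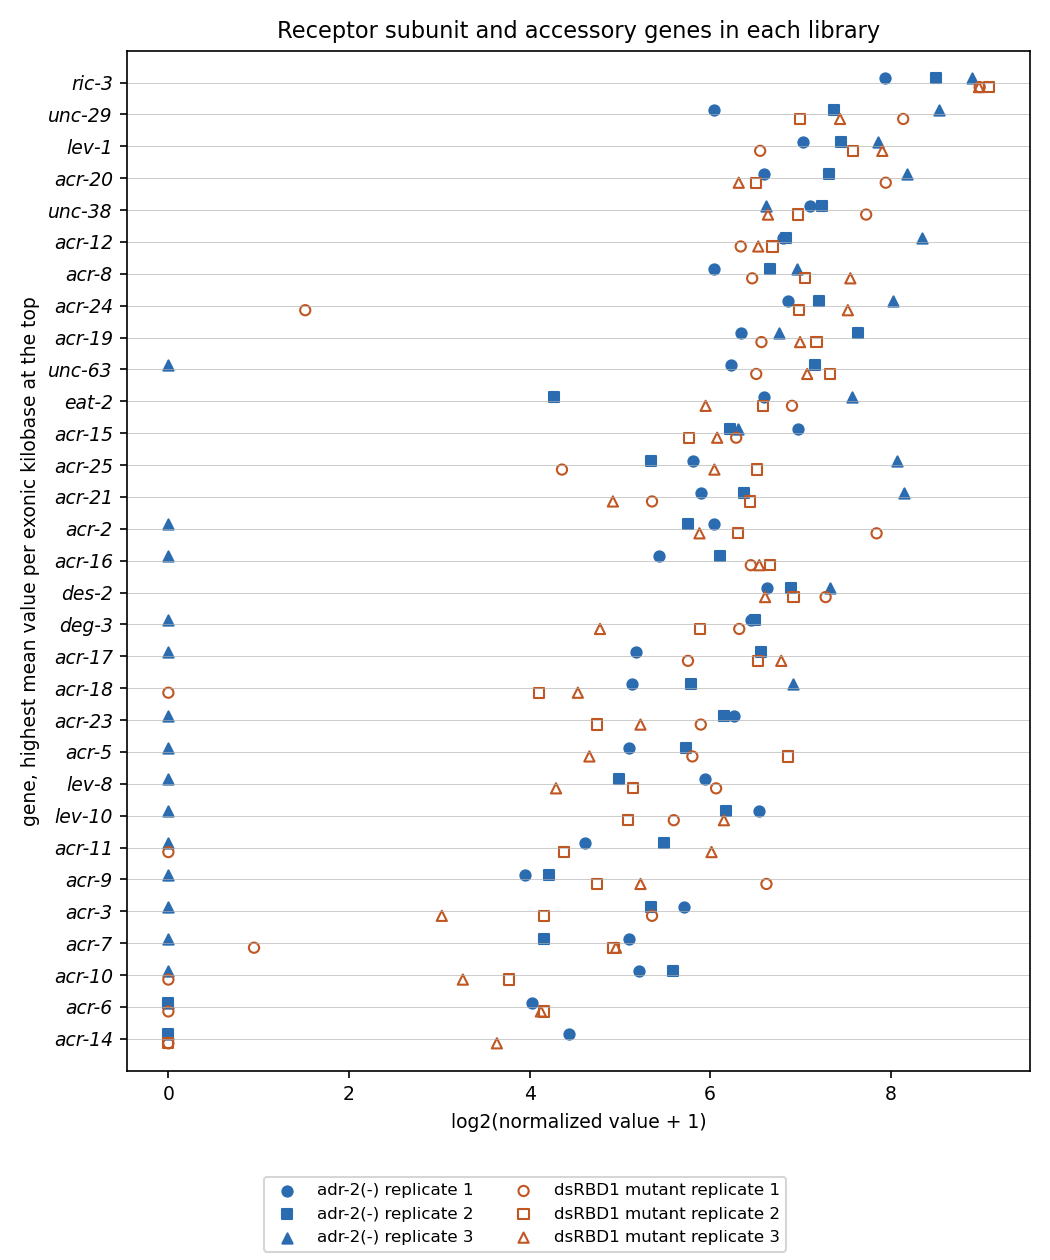
Normalized values of the 31 genes in each library, as log2(value + 1), with filled symbols for adr-2(-) and open symbols for dsRBD1 mutant libraries, and genes ordered by mean value per exonic kilobase. Points at 0 have no read; 16 of them belong to adr-2(-) replicate 3, and ric-3 is the highest gene.

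The levamisole receptor subunits included 3 of the 5 highest members. *unc-29* (chromosome I, 8897632 to 8901435), an essential non-alpha subunit of that receptor, had values of 64.9, 164 and 371 in *adr-2(-)* replicates 1, 2 and 3 and of 281, 126 and 172 in dsRBD1 mutant replicates 1, 2 and 3. The groups overlapped over most of their range (log2 fold change 0.21, standard error 0.70, adjusted p = 0.944 in limma). *lev-1* (chromosome IV, 13174157 to 13179395), a second non-alpha subunit, had 129.8, 173 and 231 against 93.0, 191 and 239, and its log2 fold change of -0.10 (standard error 0.60, adjusted p = 0.973 in limma) was smaller than its error. *unc-38* (chromosome I, 4897620 to 4900974), an alpha subunit that is also found in receptors of motor neurons, had 137, 149.7 and 97.6 against 211, 125 and 98.8. The fitted difference was 0.12 on the log2 scale, against a standard error of 0.66 (adjusted p = 0.968 in limma). These 3 levamisole receptor subunits had overlapping values, and each of their fold changes turned direction when some single library was left out, with values between -0.43 and 0.82 for *unc-29*, -0.38 and 0.30 for *lev-1* and -0.18 and 0.36 for *unc-38*.

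Another alpha subunit of the levamisole receptor, *unc-63* (chromosome I, 5141673 to 5149226), had 73.9 and 142 in *adr-2(-)* replicates 1 and 2, no read in replicate 3, and 90.2, 159 and 134 in the dsRBD1 mutant libraries. At the mean level of the first 2 replicates, replicate 3 would have held 33.2 reads. The log2 fold change of 2.51 (standard error 1.73, adjusted p = 0.741 in limma) became 0.28 without that library. *lev-8*, which encodes a further alpha subunit, was lower, with 60.4 and 30.8, no read in replicate 3, and 66.0, 34.3 and 18.6 in dsRBD1 mutant cells. Thus 2 of the 5 levamisole receptor subunits had no read in the library in which *unc-29* and *acr-12* were at their highest.

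In cholinergic motor neurons, ACR-2, ACR-3, ACR-12, UNC-38 and UNC-63 form a heteromeric receptor that sets the excitability of those neurons. *acr-2* (chromosome X, 6702549 to 6709308) had 64.9 and 52.8 in *adr-2(-)* replicates 1 and 2, no read in replicate 3, and 229, 78.2 and 58.0 in dsRBD1 mutant libraries. Its log2 fold change of 2.75 (standard error 1.77, adjusted p = 0.741 in limma) fell to 0.78 without *adr-2(-)* replicate 3. A total of 150 bases of its exons overlap a gene on the other strand. Such overlap was found for 12 of the 31 members, among them also *acr-9* with 64 bases, *acr-16* with 43, *acr-5* with 55, *acr-20* with 71, *unc-38* with 22, *lev-8* with 83, *des-2* with 137 and *acr-7* with 139, and how strand was used in counting these libraries is not given in the sources used here. *acr-3*, which begins 230 bases downstream on the same strand, had 51.4, 39.6 and no read against 40.0, 16.9 and 7.16. *acr-12* (chromosome X, 13532853 to 13536459), a subunit used in cholinergic and GABA motor neurons, had 111, 114 and 325 in *adr-2(-)* cells and 80.0, 102 and 91.6 in dsRBD1 mutant cells. Each of the 3 dsRBD1 mutant values was below the *adr-2(-)* values (log2 fold change -0.81, standard error 0.73, adjusted p = 0.766 in limma; exact two-sided permutation p = 0.1, the smallest that 3 against 3 allow). Without *adr-2(-)* replicate 3 the log2 fold change was -0.30. *acr-8*, whose ortholog in the parasite *Haemonchus contortus* is a levamisole receptor subunit, had 64.9, 101 and 124 against 87.4, 132 and 187, with overlapping groups.

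The ACR-16 group is the largest, with 11 genes that resemble the vertebrate alpha7 subunit. *acr-16* (chromosome V, 8561216 to 8564345), the nicotine-sensitive receptor of body wall muscle, had 42.4 and 68.3 in *adr-2(-)* replicates 1 and 2, no read in replicate 3, and 86.5, 101 and 92.3 in the dsRBD1 mutant libraries. The groups did not overlap, and the dsRBD1 mutant values were the higher ones and lay close together (log2 fold change 2.703, standard error 1.75, adjusted p = 0.741 in limma; exact two-sided permutation p = 0.1). Without *adr-2(-)* replicate 3 the log2 fold change of *acr-16* was 0.78. *acr-9* (chromosome X, 13642313 to 13646898) had 14.4, 17.6 and no read in *adr-2(-)* cells and 97.6, 25.9 and 36.5 in dsRBD1 mutant cells. It too did not overlap (log2 fold change 2.81, standard error 1.90, adjusted p = 0.741 in limma; exact two-sided permutation p = 0.1), and its log2 fold change was 1.45 without *adr-2(-)* replicate 3. Its *adr-2(-)* values were not far above the value of 9.76 that 3 reads would have had in replicate 3. *eat-2*, a subunit of the pharyngeal muscle required for fast pumping, had 95.5, 18.3 and 189 against 119, 95.1 and 60.8, so that the 2 extremes were both *adr-2(-)* libraries.

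Among the other genes of this group, *acr-19* had 80.2, 197 and 107 against 93.9, 144 and 127, and *acr-15* had 124, 73.4 and 78.1 against 77.2, 53.6 and 66.6. Both had overlapping groups, and *acr-15* was among the least variable members. *acr-21* had 58.6, 82.2 and 283 in *adr-2(-)* and 40.0, 86.1 and 29.3 in dsRBD1 mutant cells, and *acr-25* had 55.0, 39.6 and 267 against 19.5, 90.9 and 65.1. In both, *adr-2(-)* replicate 3 was more than any other library. *acr-10* had 36.0, 46.97 and no read in *adr-2(-)* cells and no read, 12.6 and 8.59 in dsRBD1 mutant cells. *acr-11* had 23.4, 44.0 and no read against no read, 19.9 and 63.7. Both lacked reads in *adr-2(-)* replicate 3 and dsRBD1 mutant replicate 1. *acr-7* had 33.3, 16.9 and no read against 0.93, 29.5 and 30.1, the lowest mutant value being 1 read.

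The DEG-3 group includes the channel of DEG-3 and DES-2, which is activated by choline, and ACR-23, a betaine receptor and target of the anthelmintic monepantel. *des-2* was among the most even members, with 98.2, 118 and 159 in *adr-2(-)* and 154, 120.4 and 96.6 in dsRBD1 mutant cells. *deg-3*, which lies 113 bases downstream on the same strand, had 86.5, 89.5 and no read against 79.0, 58.4 and 26.5. The pair thus parted in *adr-2(-)* replicate 3, where *des-2* had 49 reads. *acr-23* had 75.7, 70.5 and no read against 58.6, 25.9 and 36.5. *acr-20* (chromosome II, 14373831 to 14377896), the highest gene of the group, had 95.5, 159 and 289 against 245, 90.3 and 78.7, with overlapping groups (log2 fold change -0.44, standard error 0.72, adjusted p = 0.859 in limma). *acr-18* (chromosome V, 15551157 to 15559147) had 34.2, 54.3 and 120.3 in *adr-2(-)* cells and no read, 16.3 and 22.2 in dsRBD1 mutant cells. It was the lowest member by fold change, with groups that did not overlap (log2 fold change -3.07, standard error 1.85, adjusted p = 0.741 in limma; exact two-sided permutation p = 0.1). Unlike *acr-16* and *acr-9*, *acr-18* had reads in *adr-2(-)* replicate 3, and without that library the log2 fold change was -2.58. Without dsRBD1 mutant replicate 1, where *acr-18* had no read, it was -1.63, and without both libraries -1.14.

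Of the remaining genes of this group, *acr-24* had 115, 147 and 260 against 1.86, 126 and 183. Its lowest value, 2 reads in dsRBD1 mutant replicate 1, stood far from 209 and 256 reads in replicates 2 and 3. *acr-17* had 35.1, 93.9 and no read against 53.0, 91.5 and 109, and its log2 fold change of 2.44 (standard error 1.80, adjusted p = 0.744 in limma) was 0.49 without *adr-2(-)* replicate 3. *acr-5*, whose promoter is used to mark B-type motor neurons, had 33.3, 52.1 and no read against 54.9, 116 and 24.3. Its log2 fold change of 2.17 (standard error 1.89, adjusted p = 0.764 in limma) was 0.36 without the same library. The 2 genes had overlapping groups.

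The chaperone gene *ric-3* had 243, 363 and 478 in *adr-2(-)* replicates 1, 2 and 3 and 506, 542 and 503 in the dsRBD1 mutant libraries. All dsRBD1 mutant values were the higher ones, with a mean of 517 ± 21.9 against 361 ± 117 (SD, n = 3 each; log2 fold change 0.57, standard error 0.35, adjusted p = 0.741 in limma; exact two-sided permutation p = 0.1). Without *adr-2(-)* replicate 3, the *adr-2(-)* library nearest to the mutant ones, its log2 fold change was 0.80, with an adjusted p of 0.808 in limma. Without *adr-2(-)* replicate 1, the library with the lowest value, it was 0.31. With replicate 3 left out *ric-3* was the only member (1 of 29) at an unadjusted p-value under 0.05, as were 6.03% of all genes. *lev-10*, which encodes a transmembrane protein that clusters levamisole receptors at the synapse, had 91.9, 71.2 and no read against 47.4, 33.1 and 70.1. A total of 2714 of its 2950 exonic bases are shared with *eat-18* on the same strand, so reads of the 2 genes cannot be told apart and the level of *lev-10* is uncertain.

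No member passed the test in the fit over all 13705 genes. Of the 29 tested members, 0 were called by limma, a call being an adjusted p-value under 0.05 with a log2 fold change beyond 0.5 in size, where 0% of all genes were called, and 0 had an unadjusted p-value under 0.05, against 6.36% of all genes. On the recovered reads the quasi-likelihood test of edgeR called 0 of 29 (0% of all genes) and DESeq2 called 0 of 29 (2.29% of all genes), and neither gave a member an unadjusted p-value under 0.05 (0 of 29 and 0 of 31, against 6.55% and 7.85% of all genes). The errors were large: the median within-group SD of log2(value + 1) was 1.88 for the 29 members and 0.89 for all genes tested, and 0.72 and 0.59 without *adr-2(-)* replicate 3. Differences of the size of those errors could not be detected. The groups did not overlap for 5 members, or 17.2%, where 13.7% of all genes tested had no overlap. Higher in dsRBD1 mutant cells were 3, *ric-3*, *acr-16* and *acr-9*, where 6.8% of all genes were, and lower were 2, *acr-12* and *acr-18*, where 6.92% were. The count was 9 (31%, against 22.7% of all genes) without *adr-2(-)* replicate 3, of which 3 were higher (9.83% of all genes) and 6 lower (12.9%), 8 (27.6%, against 29.6%) without *adr-2(-)* replicate 2 and 8 (27.6%, against 26.5%) without dsRBD1 mutant replicate 1.

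**Figure D2:**
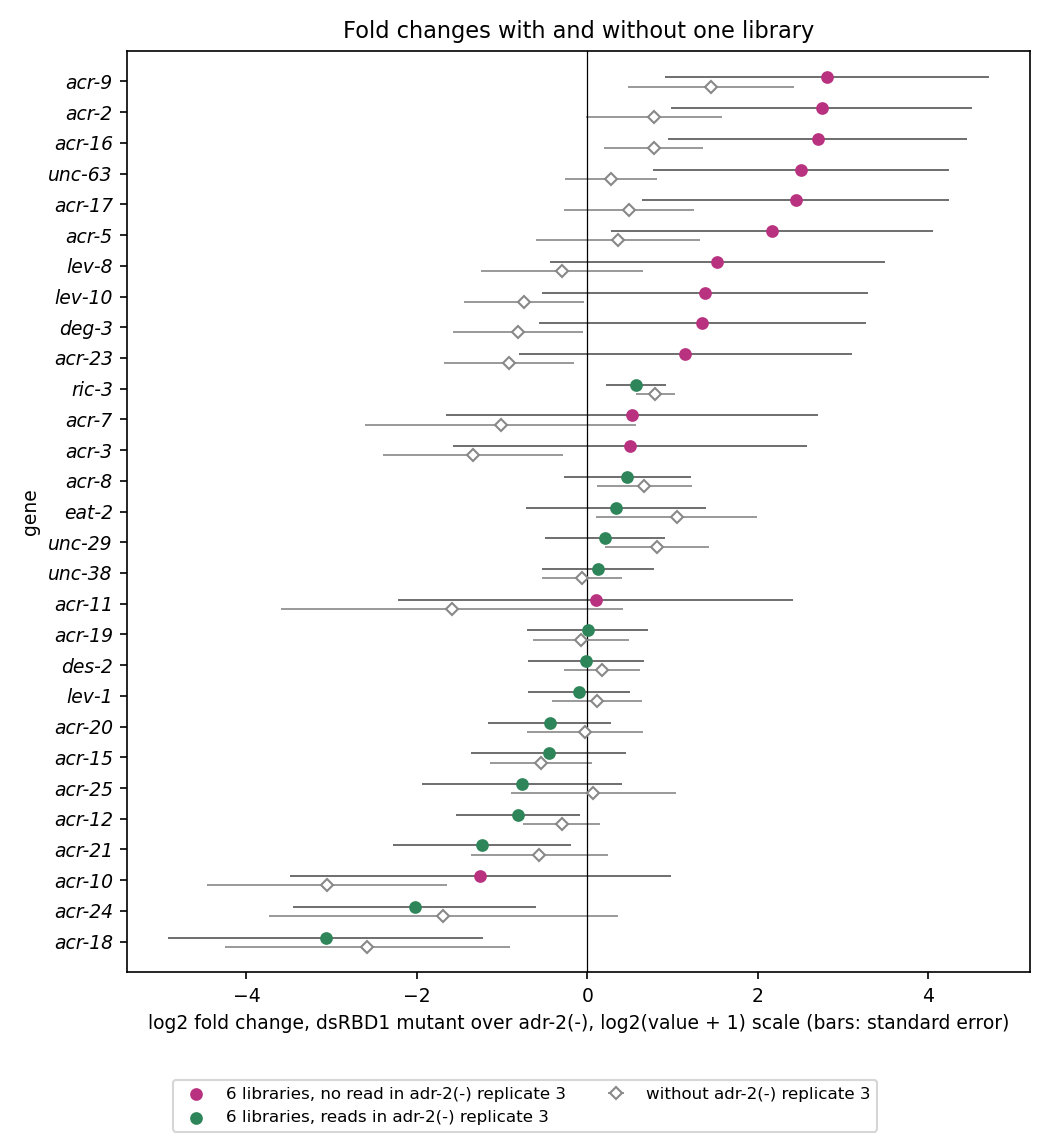
Log2 fold change of dsRBD1 mutant over adr-2(-) neural cells for the 29 tested genes on the log2(value + 1) scale, with standard errors; filled circles use 6 libraries and are coloured by whether adr-2(-) replicate 3 had reads, and open diamonds leave that library out. Of the 14 genes with no read there, 13 lie above 0, and the 6 largest positive fold changes shrink to between 0.28 and 1.45 without it.

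Members without reads in 1 library lay mostly above 0. *adr-2(-)* replicate 3 had no read for 16 of the 31 members, whereas the other 5 libraries had none for 0 to 5 of them. Of all genes tested, 5.56% and 6.01% had no read in *adr-2(-)* replicates 1 and 2, and 16.1%, 6.77% and 4.47% in dsRBD1 mutant replicates 1, 2 and 3. Among the tested members 14 of 29 (48.3%) had no read in that library, against 25.2% of all genes tested. The median log2 fold change of those 14 was 1.45, and 13 were above 0. The 3457 tested genes that shared this lack of reads had a median of 1.60, with 2758 above 0. The 15 tested members with reads in replicate 3 had a median of -0.10, with 6 above 0. These fold changes depend on how a library without reads is modelled, since on the recovered reads edgeR and DESeq2 each put 9 of the 14 above 0, with a median of 0.33. Over all 29 members 19 fold changes were above 0 (65.5%, against 54.5% of all genes) with a median of 0.34, beside 0.09 for all genes. edgeR put 14 of the 29 above 0 and DESeq2 12. Without *adr-2(-)* replicate 3, 13 were above 0 (44.8%, against 45% of all genes).

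In *adr-2(-)* replicate 3 a member had either no read or at least 24, with none between. The 15 detected members had 24 to 147 reads there, and the mean of replicates 1 and 2 corresponds to 13.6 to 93.1 reads. For 12 of the 15, replicate 3 was above that mean. The ratio had a median of 1.99 over all 15 and was highest, 5.64, for *acr-25*. The 15 were picked by having reads in that library, and the share above that mean was not computed over all genes. In 9 of the 15 (60%) replicate 3 was the highest of all 6 libraries, as it was for 36.3% of the tested genes with a read there. For the 16 undetected members the mean of replicates 1 and 2 corresponds to 2.35 to 33.2 reads, with a median of 14.003. The libraries hold reads, not molecules, so PCR copies of 1 molecule are counted more than once and counting error alone is a lower limit of the error. The part of *rrn* reads and of depth in this pattern was not tested.

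**Figure D3:**
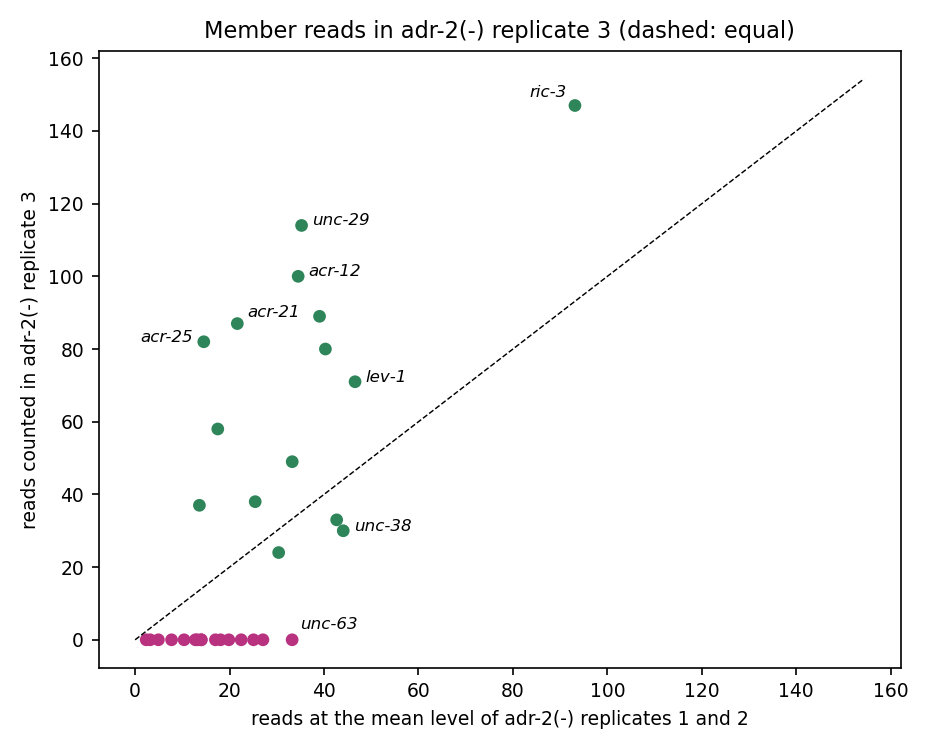
Reads of each of the 31 genes in adr-2(-) replicate 3 against the reads that the mean normalized level of adr-2(-) replicates 1 and 2 would give in that library; the dashed line marks equality. The 16 genes without a read lie on the lower axis, up to 33.2 reads for unc-63, and 12 of the 15 detected genes lie above the line. The share above the line was not computed over all genes.

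The genes of each subunit group were also summed. The ACR-16 group had 397 ± 99.5 normalized units per exonic kilobase in *adr-2(-)* cells and 336 ± 32.6 in dsRBD1 mutant cells, and the DEG-3 group had 342 ± 64.7 and 279.7 ± 20.04 (SD, n = 3 each). The UNC-29 group had 256 ± 90.8 and 285 ± 67.8, the ACR-8 group 159.8 ± 57.6 and 142 ± 16.6, and the UNC-38 group 124 ± 60.3 and 171 ± 17.7 (SD, n = 3 each). The 5 groups overlapped between the genotypes. In *adr-2(-)* replicate 3 the ACR-16, ACR-8 and DEG-3 groups were at their highest and the UNC-38 group, where *unc-63* and *acr-6* had no read, was at its lowest. All members together took 183 to 259 RPM in *adr-2(-)* libraries and 215 to 258 in dsRBD1 mutant libraries, so the ranges overlapped. The 183 was that of *adr-2(-)* replicate 3, where *rrn* reads took 554242 RPM of the same total. In *adr-2(-)* replicates 1 and 2 the members took 211 and 259 RPM. No sum was made on reads outside *rrn* genes.

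**Figure D4:**
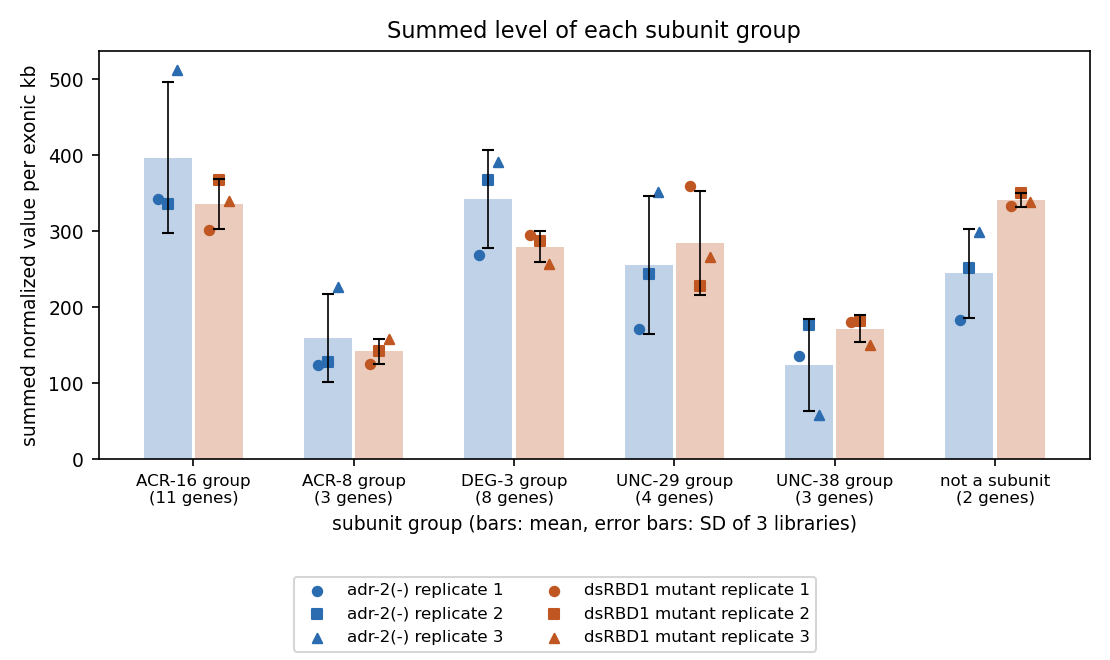
Summed normalized value per exonic kilobase of each subunit group in every library, with bars for the mean and error bars for the SD of 3 libraries per genotype. Each of the 5 subunit groups overlaps between adr-2(-) and dsRBD1 mutant cells, and the sum of ric-3 and lev-10, labelled not a subunit, does not. Taken singly, ric-3 does not overlap and lev-10 does.

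The rest of cholinergic signalling was read from 4 lists of 30 genes, 27 of which were analysed here. None of the 27 was called (0 by limma, 0 by edgeR and 0 by DESeq2). At an unadjusted p-value under 0.05 edgeR gave 0 and DESeq2 gave 1, *unc-17*, the vesicular acetylcholine transporter, which was lower in dsRBD1 mutant cells. It had 24, 10 and 45 reads in *adr-2(-)* libraries and 1, 0 and 12 in dsRBD1 mutant libraries (log2 fold change -4.19, adjusted p = 0.285 in DESeq2; -3.52, adjusted p = 0.741 in limma), and its normalized values overlapped between the groups. By limma 2 were higher in dsRBD1 mutant cells at that level while 0 were lower, where 3.46% and 2.9% of all genes were. The first was *nra-4*, an endoplasmic reticulum protein that affects which subunits are assembled, with 557, 750.1 and 257 against 1287, 650.03 and 846. The groups of *nra-4* overlapped (log2 fold change 0.91, standard error 0.41, adjusted p = 0.741 in limma). The second was *gar-2*, a muscarinic receptor coupled to G proteins, with 679 and 730.2 in *adr-2(-)* replicates 1 and 2, 263 in replicate 3, and 1030.1, 788 and 929 in dsRBD1 mutant cells (log2 fold change 0.84, standard error 0.38, adjusted p = 0.741 in limma). The genes of acetylcholine synthesis, release and breakdown had a median log2 fold change of 0.11 over 7 genes, the factors for receptor assembly and clustering 0.05 over 9, the muscarinic receptors 0.03 over 3 and the acetylcholine-gated chloride channels 0.19 over 8, beside 0.09 for all genes.

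Markers of other cell types were read in the same libraries. The 5 cholinergic neuron markers took 111 to 297 RPM in *adr-2(-)* and 184 to 273 in dsRBD1 mutant libraries, and the 5 GABA neuron markers 206 to 345 and 267 to 509. The germline and early embryo markers, whose genes are no members, took 117 to 300.4 and 59.8 to 80.1. Of the 8, 5 were lower in dsRBD1 mutant cells at an unadjusted p-value under 0.05 in limma, where 2.9% of all genes were. The intestinal markers took 2688 to 6845 and 4298 to 6928 and the epidermal markers 69.1 to 490.4 and 66.9 to 952, with overlap. Without *adr-2(-)* replicate 3, whose many *rrn* reads are in its total, the *adr-2(-)* values of the cholinergic neuron markers began at 207 RPM. Those of the GABA neuron, intestinal and epidermal markers began at 296, 6402 and 82.8. The glial markers took 23.4 (77.5 without that library) to 86.9 and 91.4 to 98.5. These, the pharyngeal muscle markers, given above, and the germline and early embryo markers had no overlap between the genotypes. In dsRBD1 mutant libraries the germline and early embryo markers were lower, and the glial and pharyngeal muscle markers were higher. The part of these differences in the values of *ric-3*, *acr-16*, *acr-9*, *acr-12*, *acr-18* and *eat-2* was not tested.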

How the data were processed

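Neural cells of L1 animals were profiled in 6 libraries, 3 per genotype, and samples were grouped by the genotype in their labels. The authors mapped 75 bp single-end stranded reads to WS275 with STAR 2.7.8a, allowing 1 location per read, obtained gene counts from featureCounts and normalized them with DESeq2. The deposited signal is this normalized value per gene and library. The deposited log2 fold changes and p-values of the authors' own comparison were not used. Every value (100%, tolerance 0.01) was a whole multiple of what 1 read is worth in its library, which gave back the reads. The size factors set every level given.

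The main test was limma 3.58.1 (R 4.3.3) with its trend option, run on log2(value + 1) for the 13705 genes whose mean value reached 10, and p-values were adjusted over all of these by Benjamini-Hochberg. On this scale the added 1 understates the change of low genes, and the fold change of a gene with no read in a library depends on it. The recovered reads were also tested with edgeR 4.0.16 (quasi-likelihood) and DESeq2 1.42.0, and permutation tests were exact (scipy 1.17.1). The steps were tested on simulated data, which kept the depth of each library but gave every gene and library the same spread setting in a run. The simulation did not model the lack of reads seen in *adr-2(-)* replicate 3. Alternatives were another pseudocount, filter, scaling, test or threshold, a replicate block, and each library left out. Leaving out *adr-2(-)* replicate 3 and dsRBD1 mutant replicate 1 together was chosen after seeing the data.

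Gene models and lengths came from Ensembl release 115 for WBcel235, the assembly of WS275, and all 31 members matched by identifier. Exon lengths may differ from those of WS275. The members and gene lists were chosen with earlier results of these data known. Members were named by the rule that each is given with its values, and with full statistics if called, at an unadjusted p under 0.05, without overlap between groups, or among the 5 highest per kilobase. Statistics were also given for members above a log2 fold change of 2 that had no read in *adr-2(-)* replicate 3, a rule added after their values were seen. No pair of libraries agreed within sampling noise. The smallest chi-square per degree of freedom over genes was 59.6. The labels call the replicates biological, and p-values cover the spread among these 6 libraries.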

Additional observations from a re-analysis of the deposited data

How the results depend on the processing

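No member was called under any of the settings tried, and the number at an unadjusted p under 0.05 was 0 in all but 2. It was 1 (*ric-3*) without *adr-2(-)* replicate 3, and 1 when dsRBD1 mutant replicate 1 was left out as well, a setting chosen after seeing the data, so omitting single libraries gave 0 to 1. The members whose groups did not overlap, 5 in all, were 2 of the 13 with at least 10 reads in every library (15.4%, against 14.8% of all such genes), 6 to 9 with a single library omitted (20.7% to 31%, against 20.2% to 29.6% of all genes), and 16 without both of those libraries (55.2%, against 41.6%). Fewer libraries overlap less often by construction. Of the 13 members given with full statistics, 10 kept their direction under every setting that gave them a value. Of these, 7 were not tested where at least 10 reads in every library were required. This count is a weak check. The 5 members without overlap keep their direction by construction when a library is left out, and several settings leave the limma fold change as it was. The log2 fold change of *lev-1* was 0.039 when scaled by library totals, 0.011 with edgeR and 0.51 without both libraries, and with a single library omitted it lay between -0.38 and 0.30. That of *unc-29* was -0.011 with edgeR and -0.038 with DESeq2, and ran from -0.43 to 0.82. That of *unc-38* was -0.37 without both libraries and ran from -0.18 to 0.36. The causes were not tested. Scaling by library totals moved the median of all genes from 0.09 to 0.21, and omitting *adr-2(-)* replicate 3 moved it to -0.06. The 5 highest members per exonic kilobase were also the 5 highest per coding kilobase, and 4 of them were without division by length.

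Same-numbered libraries of the 2 genotypes did not deviate together (correlations of -0.09, 0.04 and -0.06 across genes). Only the libraries numbered 2 correlated best with their own number. With the replicate number as a block, limma and edgeR each called 0 members, and 21 and 7 of all genes. The library with the fewest reads on genes was *adr-2(-)* replicate 3, where a value under 9.76 is less than 3 reads. The part of depth in the values of the members there was not tested.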

Other observations

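In 3 pairs of neighbouring members on the same strand, the ratio of reads within a library is free of the size factor. The pairs were picked after their values were seen. *acr-2* had 72, 72, 246, 130 and 81 reads in *adr-2(-)* replicates 1 and 2 and dsRBD1 mutant replicates 1, 2 and 3, where *acr-3* had 57, 54, 43, 28 and 10. The ratio of *acr-2* to *acr-3* was therefore 1.263 and 1.33 in *adr-2(-)* cells and 5.72, 4.64 and 8.1 in dsRBD1 mutant cells, a difference of 2.21 on the log2 scale. *adr-2(-)* replicate 3 had no read for either gene and gave no ratio. For *des-2* and *deg-3* the ratio was 1.14 and 1.32 in *adr-2(-)* cells and 1.95, 2.06 and 3.65 in dsRBD1 mutant cells, a log2 difference of 1.00, while *adr-2(-)* replicate 3 had 49 reads of *des-2* and none of *deg-3*. In these pairs the ratio was higher in each dsRBD1 mutant library than in *adr-2(-)* replicates 1 and 2, whereas *adr-2(-)* replicate 3, with reads of *des-2* alone, lay above all of them in the share of *des-2*. For *acr-15* and *acr-16*, which lie 5833 bases apart, the ratio was 2.94 and 1.08 against 0.89, 0.53 and 0.72, a log2 difference of -1.34, and *adr-2(-)* replicate 3, with 24 reads of *acr-15* and none of *acr-16*, gave no ratio. Over the 3 pairs the two-sided exact permutation test gave p = 0.2 each time, the smallest that 2 ratios against 3 allow, so none of these differences can pass a threshold in these libraries.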
